A study of Sus scrofa with 20 samples.

Results

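A set of 9 genes of the pigment cell were followed through the skin of white pigs: TYR, TYRP1, DCT, PMEL, MLANA, MITF, KIT, SOX10 and EDNRB. Each was found by its symbol among the 19280 rows of Ensembl pig gene identifiers, and all 9 members had 1 row. The libraries were RNA-seq of 4 mm skin biopsies from 5 wild-type female Yorkshire pigs aged 4, 5, 6, 7 and 8 months, with 4 sites per pig. The libraries labelled volar are called sole here and those labelled dorsal upper foot, beside flank and snout, whose names are those of the labels. Every pig was untreated as far as the labels say, and no pig of another breed or coat colour was analysed here, so the levels have no pigmented skin to be set against. The labels give no genotype at the KIT locus.

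Melanocytes are neural crest cells that make the pigment melanin in organelles called melanosomes and pass it to keratinocytes of epidermis and hair. TYR carries out the first and limiting step of melanin synthesis, with TYRP1 and DCT acting after it, while PMEL forms the fibrils of the melanosome and MLANA is needed for its maturation. MITF is the transcription factor at the head of this programme, SOX10 acts before it, and KIT and EDNRB are receptors that melanocyte precursors need to survive and migrate. White coat in Yorkshire and related pigs is known to come from dominant alleles of KIT. Several of the genes also work in other skin cells: KIT in mast cells, SOX10 in Schwann cells and glands, EDNRB in endothelium and glia, and MITF in mast cells and macrophages.

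The libraries fall into a first set of 12 (pigs of 4, 7 and 8 months) and a second set of 8 (pigs of 5 and 6 months), and the site labels of the second set go against those of the first. Sites are therefore given as labelled in the first set. In the second set they are given by expression match: the libraries labelled flank were taken as sole, those labelled volar as snout, those labelled dorsal as flank and those labelled snout as upper foot. The match was made over all genes, so a second look at the same libraries is no independent check of it. On the 2000 most variable genes outside all lists used here, each of the 8 libraries correlated best with its assigned first-set site. These r ran from 0.774 to 0.876. For libraries taken as flank or upper foot, the other of these sites came next, at r from 0.622 to 0.74. For those taken as sole or snout, the next site stood at 0.00119 to 0.0361. Within the first set, the same measure placed 11 of 12 libraries nearest their labelled site. The exception was flank in the 7-month pig, nearer to upper foot (r = 0.696) than to flank (r = 0.672). Without that library, 6 members differed among sites, beside 59.5% of all genes. With sites as deposited over all 20 libraries, edgeR's quasi-likelihood test called 0 of 15275 genes for any site. Of the 7 members tested there, 3 had an unadjusted p under 0.05. The share of all genes at that p is not given here, so this count is a description only. Tested differences of the members that were called are also given for the first set alone, which rests on no matched library, as are most of those of other genes. Totals ran from 34077821 to 66906420 counts, and the scaling factors from 0.569 to 0.812 in sole and from 0.981 to 1.29 elsewhere. Skeletal muscle genes were high in 3 of 5 snout libraries, summed over 17 markers at 6321 to 13752 CPM (counts per 1000000 counts) against 14.8 and 18.2 CPM in the other two. These were the snout library of the 7-month pig and the libraries labelled volar of the 5- and 6-month pigs.

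TYR was not detected. All 20 libraries held 0 counts among 1019280768 in total, which allows up to 0.00294 CPM over all libraries, before scaling. In single libraries the same limit of 3 counts stood at 0.0394 to 0.137 CPM. MLANA gave 6 counts in all, spread over 5 libraries with at most 2 in any of them. Of these, 3 counts were from flank and 3 from upper foot, and none from the 10 libraries of sole and snout. These limits cover counting error only, for the gene models the authors counted. Neither gene passed the filter on low counts, so 7 of the 9 members were tested.

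**Figure D1:**
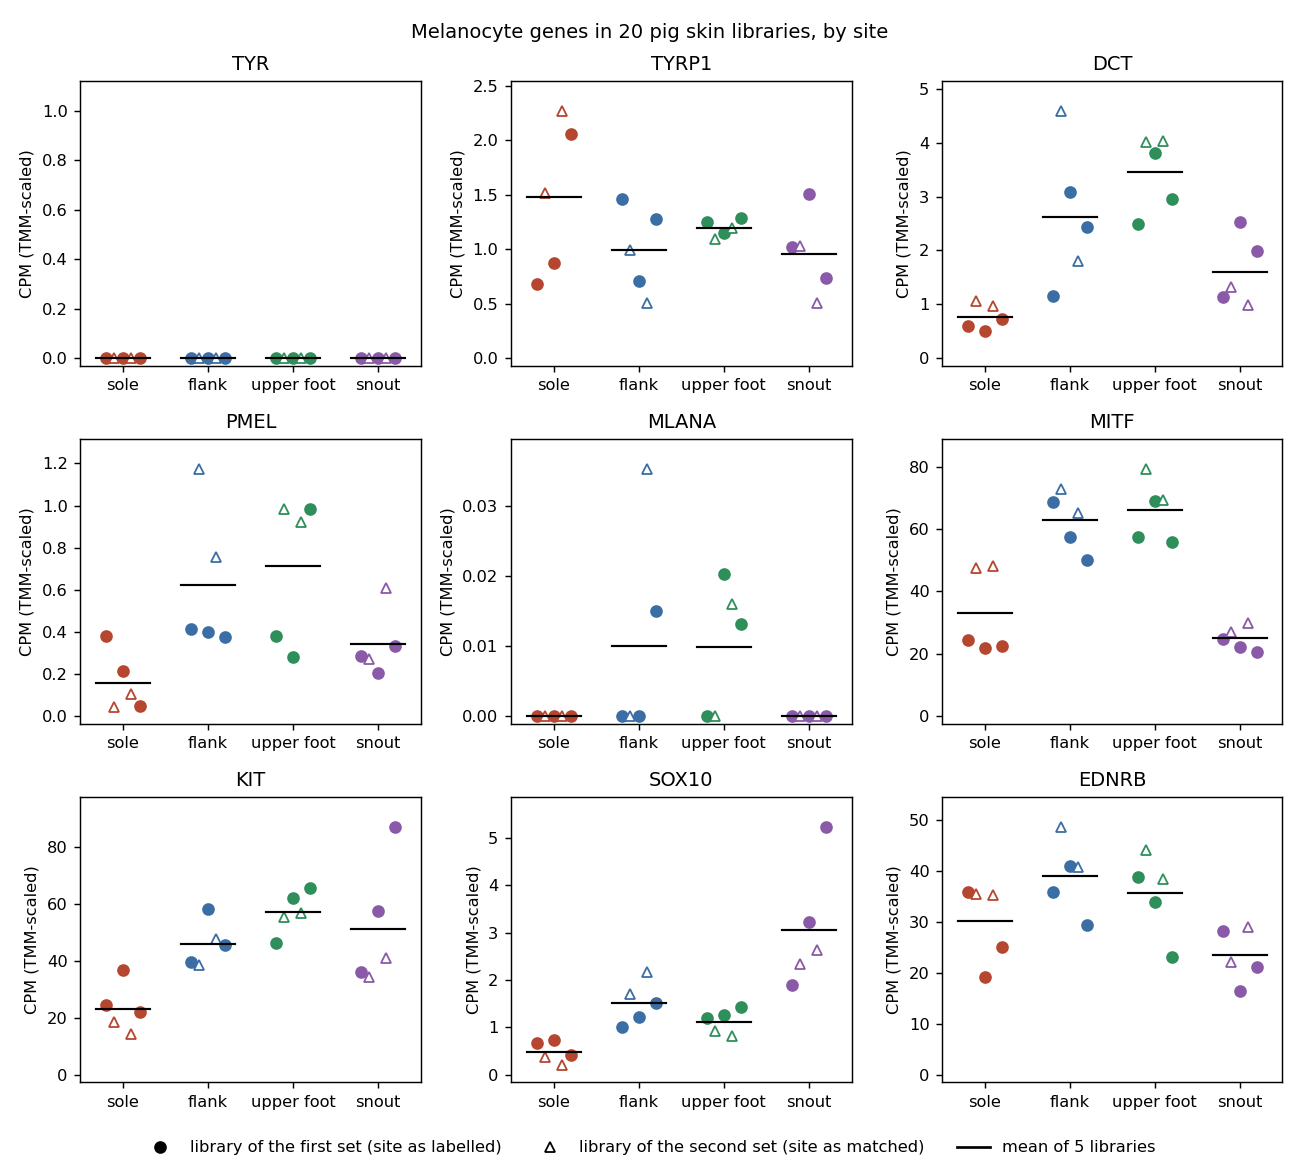
Level of each of the 9 genes in each library (CPM after TMM scaling, linear axes of differing range) at the 4 skin sites. Filled circles are the 12 libraries of the first set, open triangles the 8 libraries of the second set, and bars the mean of 5 libraries. TYR lies at 0 throughout, and MITF lies between 50.1 and 79.3 CPM in flank and upper foot against 20.7 to 48.1 CPM in sole and snout.

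Of the 7 members tested, 6 differed among the 4 sites (edgeR, adjusted p from 2.42e-07 for MITF to 0.016 for PMEL), where 60.3% of all genes tested did. TYRP1 was the exception (adjusted p = 0.342, and 0.987 in the first set). In the first set alone 3 members passed, DCT, MITF and SOX10, beside 30.4% of all genes. In the second set alone 6 passed, beside 44.5%. All values below are TMM-scaled CPM, given as mean ± SD over 5 pigs, and differences are log2 fold changes ± standard error with p-values adjusted over all genes. In bulk tissue, fewer cells of a type and less RNA per cell cannot be told apart.

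DCT, which encodes dopachrome tautomerase, was lowest in sole and highest in flank and upper foot. Its level in the sole libraries was 0.607, 0.72 and 0.505 CPM in the pigs of 4, 7 and 8 months and 0.979 and 1.05 CPM in those of 5 and 6 months. In flank the same pigs, in the same order, gave 1.16, 2.44, 3.09, 1.8 and 4.59 CPM. Every flank library lay above every sole library. In upper foot they gave 2.49, 2.96, 3.8, 4.03 and 4.02 CPM, again with no overlap with sole. In snout they gave 1.15, 1.98, 2.54, 0.982 and 1.33 CPM, and this range met that of sole at its lower end. The counts behind these values were 23 to 28 per sole library and 163 to 253 per upper foot library.

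DCT fell by 1.78 ± 0.35 in sole against flank (adjusted p = 0.000346) and by 2.18 ± 0.352 against upper foot (adjusted p = 6.67e-05). The first set alone gave -1.87 (adjusted p = 0.00642) and -2.33 (adjusted p = 0.00275). Against snout, sole was lower by a log2 fold change of -1.11 ± 0.35 (adjusted p = 0.0177), and by -1.63 (adjusted p = 0.0293) in the first set. The second set gave -0.18 for that pair (adjusted p = 0.795). Snout lay below upper foot at -1.07 ± 0.335 (adjusted p = 0.0278), a call lost in the first set alone (-0.71, adjusted p = 0.339).

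PMEL, the melanosome fibril gene, had 1 to 75 counts per library. It ranged from 0.0458 to 0.38 CPM in sole, 0.375 to 1.17 in flank, 0.283 to 0.986 in upper foot and 0.206 to 0.61 in snout. Sole overlapped each of the other sites, with flank only through the sole library of the 4-month pig. PMEL fell by 1.70 ± 0.532 in sole against flank (adjusted p = 0.0114) and by 1.94 ± 0.527 against upper foot (adjusted p = 0.00531). Neither difference passed in the first set (-0.88, adjusted p = 0.326, and -1.36, adjusted p = 0.153).

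TYRP1, which encodes an enzyme acting on the indole intermediates of melanin, showed no site difference beyond the spread between pigs. Its means were 1.48 ± 0.701 CPM in sole, 0.989 ± 0.39 in flank, 1.2 ± 0.0771 in upper foot and 0.96 ± 0.375 in snout (n = 5 each). The sole libraries spanned 0.683 to 2.27 CPM and so enclosed the whole upper foot range of 1.09 to 1.29 CPM. Without TMM factors the means were 1.01 CPM in sole, 1.11 in flank, 1.46 in upper foot and 1.04 in snout. The interval of the sole minus flank difference ran from -0.163 to 1.36, and that of snout minus flank from -0.793 to 0.711, on the log2 scale. Differences of that size could not be detected here.

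MITF, the transcription factor of the pigment programme, split the sites into flank and upper foot on one side and sole and snout on the other. In flank the pigs of 4, 7, 8, 5 and 6 months gave 68.5, 50.1, 57.6, 65 and 72.9 CPM, and in upper foot 57.5, 55.8, 68.9, 69.2 and 79.3 CPM. In snout they gave 24.8, 20.7, 22.3, 29.8 and 27.1 CPM. In sole they gave 24.4, 22.6 and 22 CPM in the first set and 48.1 and 47.7 CPM in the second. All 10 libraries of flank and upper foot lay above all 10 of sole and snout.

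In snout MITF fell by 1.34 ± 0.144 against flank (adjusted p = 2.7e-06) and by 1.41 ± 0.144 against upper foot (adjusted p = 2.15e-06). In sole it fell by 1.00 ± 0.144 (adjusted p = 1.6e-05) and by 1.07 ± 0.144 (adjusted p = 9.8e-06). The first set alone gave -1.38, -1.43, -1.35 and -1.40 for these pairs, with adjusted p from 8.61e-05 to 0.00024. In the second set the sole differences were smaller, at -0.54 (adjusted p = 0.0131) and -0.63 (adjusted p = 0.00787). MITF was the 1 member called between the sets (0.48 ± 0.102 higher in the second, adjusted p = 0.00496, beside 12.4% of all genes). The interaction of site and set did not pass (adjusted p = 0.149, with 0.0655% of all genes called). The level in sole leans on the scaling: without TMM factors the sole means were 18 CPM in the first set and 27.4 CPM in the second, against 66.5 and 72.9 CPM in flank.

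SOX10, the neural crest factor acting ahead of MITF, had another order, with snout highest and sole lowest. In snout the pigs of 4, 7, 8, 5 and 6 months gave 1.89, 5.24, 3.22, 2.63 and 2.33 CPM. In sole they gave 0.658, 0.412, 0.737, 0.21 and 0.367 CPM, the second-set values resting on 6 and 8 counts. Flank ranged from 0.996 to 2.17 CPM and upper foot from 0.813 to 1.42 CPM. Sole overlapped none of the other sites, and upper foot did not overlap snout.

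SOX10 fell by 2.68 ± 0.339 in sole against snout (adjusted p = 1.29e-05), by 1.72 ± 0.337 against flank (adjusted p = 0.000339) and by 1.22 ± 0.331 against upper foot (adjusted p = 0.00536). In the first set alone only the difference with snout passed (-2.51, adjusted p = 0.00305), with flank at -1.04 (adjusted p = 0.0619) and upper foot at -1.09 (adjusted p = 0.065). Snout was higher than upper foot by 1.46 ± 0.316 (adjusted p = 0.00269) and than flank by 0.96 ± 0.315 (adjusted p = 0.029). The first set gave 1.42 (adjusted p = 0.0447) and 1.47 (adjusted p = 0.0288). Without the 3 snout libraries that carry muscle genes these differences were 1.10 (adjusted p = 0.116) and 0.61 (adjusted p = 0.388). Without the snout library of the 7-month pig alone, snout minus flank was 0.73 (adjusted p = 0.0971).

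KIT, the receptor for stem cell factor, was lowest in sole. There it stood at 24.4, 22 and 36.8 CPM in the pigs of 4, 7 and 8 months and at 14.2 and 18.3 CPM in those of 5 and 6 months. Flank ranged from 38.5 to 58.1 CPM and upper foot from 46.1 to 65.4 CPM, both clear of sole. Snout libraries gave 36, 86.9, 57.6, 41 and 34.1 CPM in the order above, with the 7-month pig far the highest. KIT fell by 1.35 ± 0.224 in sole against upper foot (adjusted p = 9e-05), by 1.15 ± 0.222 against snout (adjusted p = 0.000621) and by 1.03 ± 0.223 against flank (adjusted p = 0.000815). The first set gave -1.06 (adjusted p = 0.0294), -1.12 (adjusted p = 0.0402) and -0.78 (adjusted p = 0.0726). Snout, flank and upper foot did not differ beyond their spread (adjusted p from 0.566 to 0.714).

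EDNRB, the endothelin receptor of neural crest cells, varied least in fold among the 6 called members. Its means were 39.1 ± 7.12 CPM in flank, 35.6 ± 7.86 in upper foot, 30.1 ± 7.64 in sole and 23.4 ± 5.23 in snout. The snout libraries, at 16.4 to 29 CPM, lay below all flank libraries, at 29.3 to 48.6 CPM. The place of sole leans on the scaling. Without TMM factors the means were 42.9 CPM in flank, 43.1 in upper foot, 20.5 in sole and 25.1 in snout. EDNRB fell by 0.73 ± 0.176 in snout against flank (adjusted p = 0.00455) and by 0.60 ± 0.176 against upper foot (adjusted p = 0.0201). The first set gave -0.69 (adjusted p = 0.129) and -0.54 (adjusted p = 0.288). Without the libraries that carry muscle genes they were -0.66 (adjusted p = 0.113) and -0.52 (adjusted p = 0.275). Sole minus flank was -0.38 ± 0.176 (adjusted p = 0.0763). With the pig as block it was -0.40 (adjusted p = 0.0296), where 58.6% of all genes were called for that pair.

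**Figure D2:**
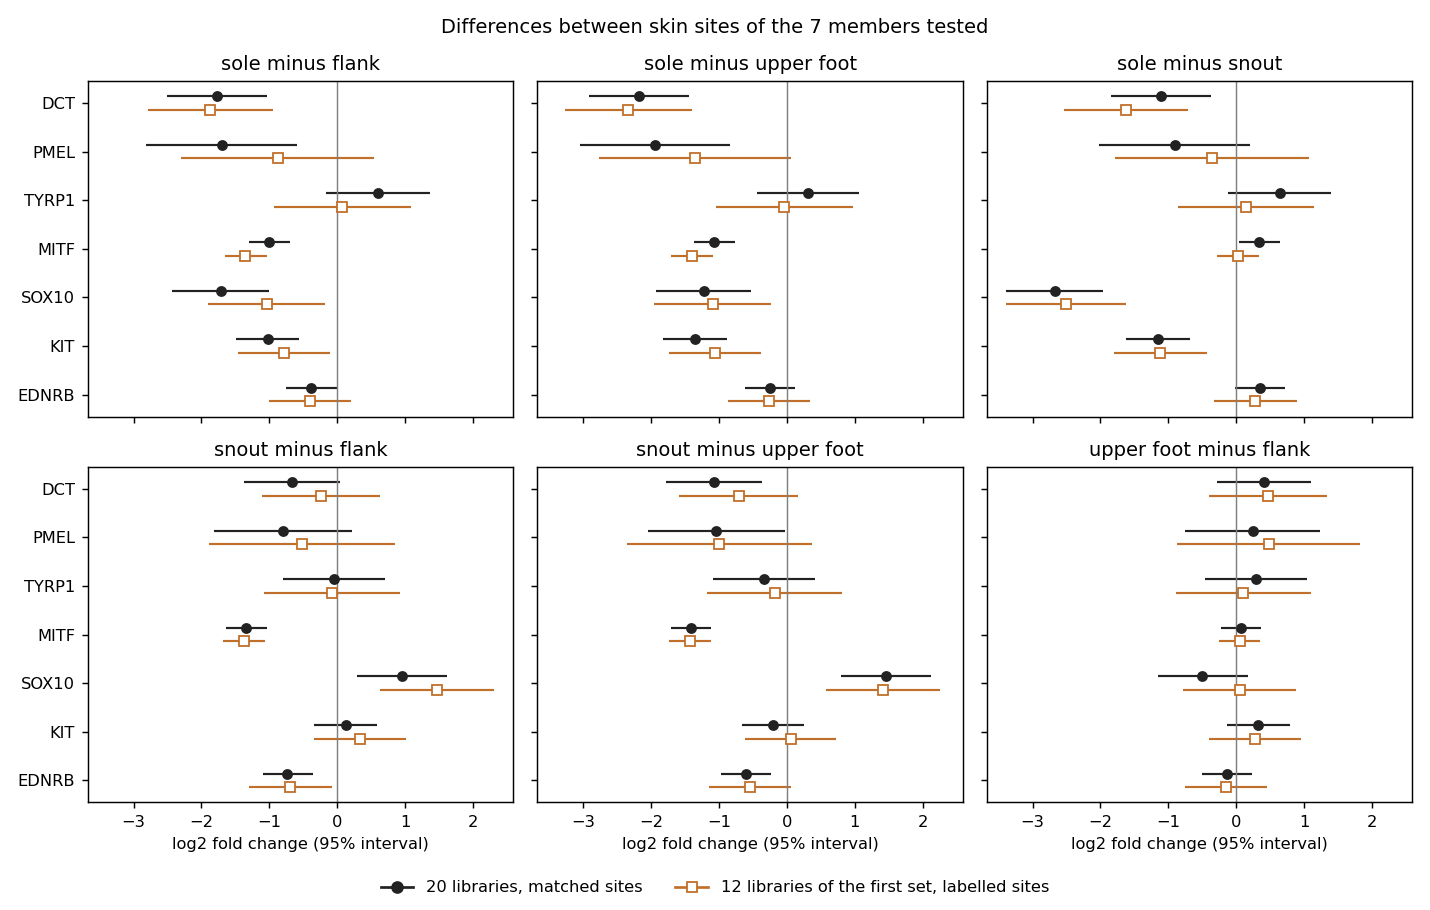
Log2 fold change of the 7 members tested in the 6 pairs of sites, with 95% intervals. Filled circles are the fit of 20 libraries and open squares that of the 12 libraries of the first set. MITF is below 0 in sole and in snout against both flank and upper foot, SOX10 is above 0 in snout against flank (0.96) and upper foot (1.46), and upper foot minus flank spans 0 for every gene.

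Counted by pair, 5 of the 7 members were lower in sole than in flank and none higher, beside 55.0% of all genes called, 29.1% lower and 25.8% higher. The first set called 2, beside 32.9%. Against upper foot 5 were lower (48.9% of all genes called, 24.2% lower), with 3 in the first set (24.1%). Against snout 3 were lower (39.7% called, 20.7% lower), and the same number passed in the first set (11.6%). Snout had 1 member higher and 2 lower than flank (28.9%, of which 15.7% of all genes higher and 13.2% lower), with 2 called in the first set (13.2%). Against upper foot it had 1 higher and 3 lower (22.2%, with 13.4% higher and 8.77% lower), with 2 called in the first set (7.92%) and 2 in the second (10.2%). Upper foot and flank differed in 0 of 7 members, beside 1.42% of all genes, and in 0 in the first set, beside 0.131%. At an unadjusted p under 0.05 that count was also 0 by edgeR in both fits, and DESeq2 and limma-voom called 0 over the 20 libraries. The second set alone called 0 and had 1 member at an unadjusted p under 0.05, SOX10 (-1.18, adjusted p = 0.485). Shares of all genes for the second set and for unadjusted p are not given here for this pair. The median difference of the members was -1.02 in sole against flank and -1.22 against upper foot, with -0.0449 and -0.0319 over all genes.

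Beside DCT, hair genes moved the same way. KRT35, a hair shaft keratin, had a mean of 0.0275 CPM in sole, where 2 of 5 libraries held none, and 100.2 and 150.7 CPM in flank and upper foot. In snout it ranged from 6.85 to 24.7 CPM. KRT85 and KRT25, of the hair cortex and inner root sheath, had the same order, with 0.0617 and 6.6 CPM in sole against 369 and 2423 CPM in flank. Of 15 hair markers tested, 13 were lower in sole than in flank and 1 higher, beside 29.1% and 25.8% of all genes. The first set alone gave 10 and 0, beside 32.9% called in either direction. Sums were 18.5 to 352 CPM in sole, 521 to 17491 in flank, 5537 to 14232 in upper foot and 380 to 1235 in snout. Across the 20 libraries DCT and KRT35 had r = 0.90. With each site centred on its own mean, r was 0.71. Between DCT and PMEL r was 0.64 over the 20 libraries and -0.028 with sites centred. Between DCT and AQP5, a water channel of the sweat gland list, it was -0.69 and 0.66. The part of hair follicle content in the DCT differences was not tested.

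Beside SOX10, Schwann cell genes moved. CDH19, a cadherin of Schwann cells and their precursors, ranged from 5.18 to 7.28 CPM in snout, with a mean of 6.54 CPM. Its means were 3.09 ± 1.37 CPM in flank, 2.42 ± 0.495 in upper foot and 0.953 ± 0.613 in sole (SD, n = 5), and the snout libraries lay above all others. CDH19 rose by 1.13 ± 0.331 in snout against flank (adjusted p = 0.0161), and the first set alone gave 0.86 (adjusted p = 0.236). Of 22 markers of Schwann cells and nerve, 17 differed among sites, beside 60.3% of all genes. In sole against flank 15 were lower and none higher, beside 29.1% and 25.8% of all genes. The first set alone gave 11 lower, beside 32.9% called in either direction. Sums ran from 387 to 713 CPM in sole, 512 to 681 in flank, 512 to 578 in upper foot and 488 to 826 in snout. ERBB3 made up most of the sole sum, with means of 368 CPM in sole, 260 in flank, 271 in upper foot and 275 in snout. The list did not move as 1: EGR2, a myelination factor, and FABP7, a lipid carrier of immature glia, were lower in snout than in flank, by -1.95 ± 0.314 (adjusted p = 0.000187) and -4.34 ± 0.652 (adjusted p = 9.47e-05), whereas GFAP was higher by 0.79 ± 0.277 (adjusted p = 0.0404). The first set alone gave adjusted p of 0.0279, 0.0119 and 0.398 for these. Of 16 sweat gland markers tested, from another tissue that holds SOX10, 11 were lower and 3 higher in sole than in flank. These stood beside 29.1% and 25.8% of all genes. The first set alone gave 9 and 3, beside 32.9% called in either direction. Sums of the sweat gland list were 1097 to 6058 CPM in sole, 552 to 870 in flank, 476 to 709 in upper foot and 321 to 552 in snout. AQP5, a water channel, made up most of the sole sum, at a mean of 2719 CPM, whereas KRT77, a keratin of the sweat duct, stood at 6.8 CPM in sole against 119.9 CPM in flank. FOXA1, a defining sweat gland marker, had means of 0.00388 CPM in sole and 10.1 CPM in flank. SOX10 and CDH19 had r = 0.81 over the 20 libraries and -0.14 with sites centred. The part of nerve or glands in the SOX10 differences was not tested.

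Beside KIT, mast cell genes moved. MS4A2, a chain of the IgE receptor of mast cells, had means of 14.4 ± 10.2 CPM in sole, 62.1 ± 11.1 in flank, 61.9 ± 7.07 in upper foot and 39.0 ± 10.0 in snout. Of 9 mast cell markers tested, 6 were lower in sole than in flank and none higher, beside 29.1% and 25.8% of all genes. The first set alone gave 4 and 0, beside 32.9% called in either direction. Sums were 16.7 to 43.1 CPM in sole, 63.9 to 97.7 in flank, 74.8 to 98.9 in upper foot and 40.8 to 69.9 in snout. HPGDS and SLC18A2, a prostaglandin synthase and a monoamine transporter of mast cells, fell by 2.29 ± 0.343 (adjusted p = 2.42e-05) and by 1.33 ± 0.364 (adjusted p = 0.00475) in sole against flank. HPGDS passed in the first set alone (-2.14, adjusted p = 0.00433), and SLC18A2 did not (-1.09, adjusted p = 0.0653). CPA3 and TPSB2 were not analysed here. KIT and MS4A2 had r = 0.79, and 0.30 with sites centred. For KIT and HPGDS these were 0.50 and -0.41. With KRT85, the hair cortex keratin, KIT had r = 0.85, and 0.36 with sites centred. The snout library with the highest KIT, that of the 7-month pig, had the lowest MS4A2 of its site, at 27.8 CPM. The part of mast cells in the KIT differences was not tested.

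**Figure D3:**
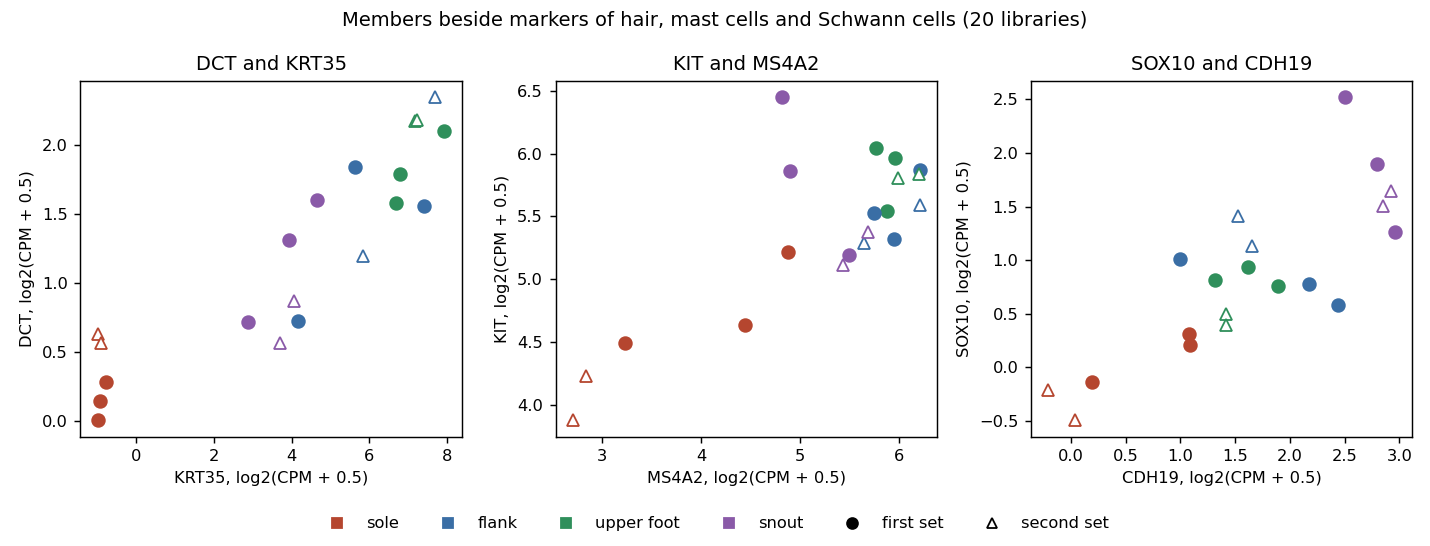
DCT, KIT and SOX10 against a marker of hair (KRT35), mast cells (MS4A2) and Schwann cells (CDH19), as log2(CPM + 0.5), 1 point per library, with colours for sites and shapes for sets. Sole libraries hold the lowest KRT35 and SOX10 levels, and 4 of 5 of them lie below all others in KIT. With each gene centred by set, unlike the points shown, r over 20 libraries is 0.90, 0.79 and 0.81. With sites centred as well it is 0.71, 0.30 and -0.14.

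Beside EDNRB, endothelial markers moved little among sites. Of 12 tested, 2 differed among sites, beside 60.3% of all genes. Sums over the list had means of 631 CPM in sole, 613 in flank, 611 in upper foot and 559 in snout. CDH5, which defines endothelium, did not differ (adjusted p = 0.393). PLVAP, a fenestral protein of vessels, was higher in sole than in snout by 1.15 (adjusted p = 0.0017), a call lost in the first set alone (0.98, adjusted p = 0.123). EDNRB had r = 0.38 with PECAM1, another endothelial marker, and 0.36 with CDH5 over the 20 libraries. With sites centred these were 0.39 and 0.28. The part of vessels in the EDNRB differences was not tested. Of 11 macrophage markers tested, 9 were lower in sole than in flank, beside 29.1% of all genes. The first set alone gave 3, beside 32.9% called in either direction. Over the 20 libraries ACP5 stood at -1.30 (adjusted p = 8.66e-05), CD14 at -1.38 (adjusted p = 3.6e-05) and MRC1 at -1.71 (adjusted p = 0.000286). All 3 of these genes passed in the first set alone (adjusted p = 0.0134, 0.009 and 0.0423). Sums of the macrophage list were 104 to 297 CPM in sole, 238 to 617 in flank, 272 to 422 in upper foot and 333 to 438 in snout. Their means were 399 CPM in snout and 435 in flank, where MITF had means of 25 and 62.8 CPM. The part of macrophages in the MITF differences was not tested.

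Of the melanin synthesis and melanosome genes, those that rose in sole were MYO5A, RAB38, MREG and SLC7A11, the last a cystine transporter. Among 23 tested of 32 listed, 4 were higher and 7 lower in sole than in flank, beside 25.8% and 29.1% of all genes. The first set gave 4 and 2, beside 32.9% called in either direction. The median over the 20 libraries was -0.0467 against -0.0449 over all genes. MYO5A, the myosin that carries melanosomes and other organelles, stood at 636 ± 100.3 CPM in sole against 218 ± 21.1 in flank, 236 ± 5.2 in upper foot and 288 ± 25.2 in snout. It rose by 1.53 ± 0.0893 in sole against flank (adjusted p = 9.09e-10) and by 1.40 in the first set (adjusted p = 2.69e-05). RAB38, a small GTPase of melanosome traffic, rose by 1.45 ± 0.224 (adjusted p = 3.19e-05), and by 1.04 in the first set (adjusted p = 0.0172). MLPH, the linker between myosin Va and RAB27A on melanosomes, went the other way, from 8.2 ± 2.55 CPM in flank to 0.402 ± 0.267 in sole (-4.42 ± 0.45, adjusted p = 3.6e-07). MLPH fell by 3.94 in the first set (adjusted p = 0.000841).

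SLC45A2, a melanosome transporter, had means of 5.76 to 7.35 CPM and did not differ among sites (adjusted p = 0.848). SLC24A5, another melanosome exchanger, was near the floor, at 0 CPM in sole and 0.0226, 0.0172 and 0.0623 CPM in flank, upper foot and snout, and was not tested. OCA2 and GPR143 were not analysed here.

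Among 22 signals and receptors of melanocytes tested, 11 were lower and 2 higher in sole than in flank, beside 29.1% and 25.8% of all genes. The first set alone gave 6 lower and 1 higher, beside 32.9% called in either direction. KITLG, the ligand of KIT, stood at 45.3 ± 13.5 CPM in sole, 91.5 ± 10.1 in flank, 81.8 ± 10.3 in upper foot and 77.7 ± 3.04 in snout. It fell by 1.02 ± 0.146 in sole against flank (adjusted p = 1.53e-05), and by 0.90 in the first set (adjusted p = 0.00602). EDN1, a ligand of endothelin receptors, fell by 2.09 ± 0.358 in sole against upper foot (adjusted p = 0.000121) and by 2.00 in the first set (adjusted p = 0.0163).

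MC1R, the melanocortin receptor that sets the type of melanin, was near 0, with site means of 0 to 0.00917 CPM, and was not tested. ASIP and EDN3 were not analysed here. DKK1, a WNT inhibitor of palm and sole fibroblasts known to act on melanocytes, was low in all sites, at 0.256 ± 0.206 CPM in sole and 0.142 ± 0.0533 in flank, and that pair did not pass (0.82, adjusted p = 0.134). DKK3, a secreted relative of DKK1, was highest in sole, at 106 ± 18.9 CPM against 36.0 ± 5.48 in flank (1.56 ± 0.156, adjusted p = 2.88e-07; first set 1.65, adjusted p = 0.000261). FGF2, a keratinocyte-derived mitogen of melanocytes, fell by 1.70 ± 0.324 in sole against flank (adjusted p = 0.000253) and by 1.31 in the first set (adjusted p = 0.0136). ADAMTS20, a protease that melanoblasts need for survival in the mouse, fell by 2.19 ± 0.463 (adjusted p = 0.000652) and by 1.94 in the first set (adjusted p = 0.041).

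The receptors varied by site in other ways. ERBB3, a neuregulin receptor, did not differ among sites (adjusted p = 0.171). EDNRA, the other endothelin receptor, was highest in upper foot, at 51.1 ± 9.03 CPM against 34.8 ± 4.68 in flank (0.54 ± 0.132, adjusted p = 0.0487). MET, the receptor for hepatocyte growth factor, was higher in snout than in flank by 0.79 ± 0.114 (adjusted p = 5.86e-05). PTCH1, the hedgehog receptor, was higher in upper foot than in flank by 0.50 ± 0.105 (adjusted p = 0.0215). Neither EDNRA (adjusted p = 0.31) nor PTCH1 (adjusted p = 0.197) passed between upper foot and flank in the first set alone, whereas MET in snout against flank did (0.66, adjusted p = 0.0116).

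Among the 22 transcription factors tested, 12 were lower and 1 higher in sole than in flank, beside 29.1% and 25.8% of all genes. The first set gave 7 and 1, beside 32.9% called in either direction. The median over the 20 libraries was -0.81. PAX3, a neural crest and muscle precursor factor that acts with SOX10 on MITF, was largely a snout gene. It stood at 5.4 ± 1.22 CPM in snout against 0.349 ± 0.232 in flank, 0.0724 ± 0.0551 in upper foot and 0.0168 ± 0.0257 in sole. Its 5 snout libraries, at 4.16 to 7.3 CPM, lay above all others, those with little muscle RNA included. It rose by 3.91 ± 0.529 in snout against flank (adjusted p = 3.21e-05), and by 3.76 in the first set (adjusted p = 0.00913). SOX5, which modulates SOX10 targets, fell by 2.07 ± 0.236 in sole and by 1.56 ± 0.23 in snout against flank (adjusted p = 1.3e-06 and 7.76e-05), and both passed in the first set (adjusted p = 0.000746 and 0.0062).

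SOX9 and LEF1, factors of the hair follicle and of WNT signalling, were also low in sole, at -1.63 ± 0.377 and -1.73 ± 0.423 against flank (adjusted p = 0.00137 and 0.00218). SOX9 passed in the first set (-1.82, adjusted p = 0.00451), whereas LEF1 did not (-1.07, adjusted p = 0.134).

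The relatives of MITF did not share its order. TFEB was highest in snout, at 16.8 ± 2.46 CPM against 12.9 ± 0.741 in flank (0.39 ± 0.1, adjusted p = 0.00753), and in the first set that pair did not pass (0.39, adjusted p = 0.111). TFE3 stood at 43.8 ± 5.76 CPM in sole and 43.3 ± 3.69 in flank (0.01, adjusted p = 0.891). TFEC was lower in sole than in flank by a log2 fold change of -1.10 ± 0.34 (adjusted p = 0.0105), a call lost in the first set (-0.65, adjusted p = 0.189).

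**Figure D4:**
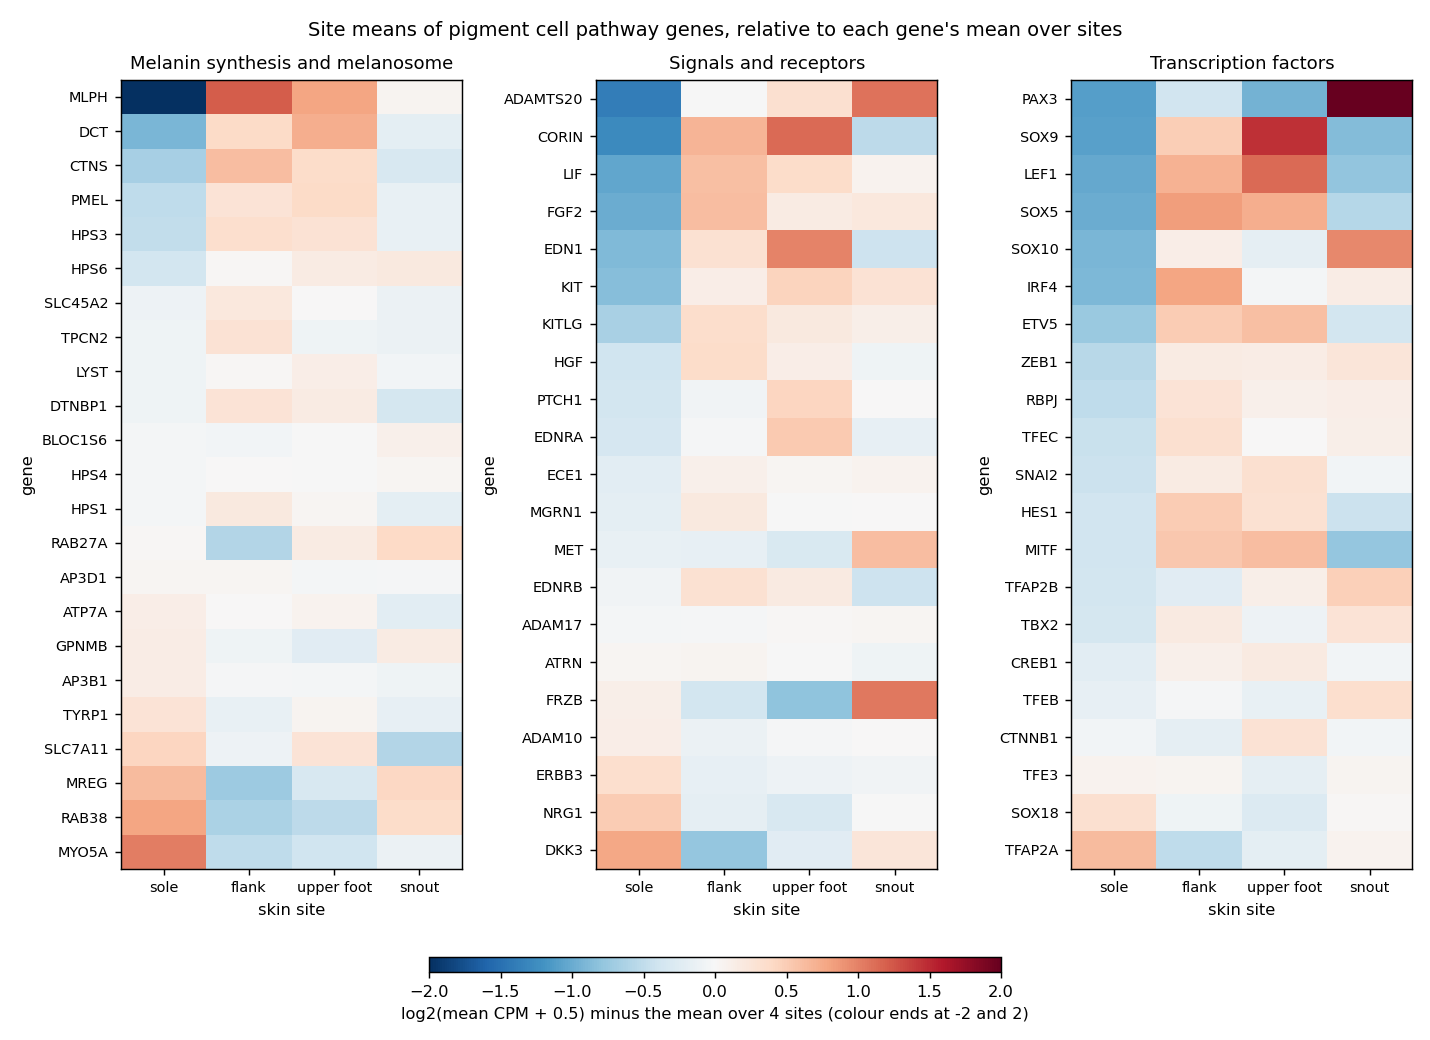
Site means of the pathway genes with at least 0.5 CPM in 1 site, as log2(mean CPM + 0.5) minus the mean of the 4 sites, in 3 lists ordered by the value in sole. MLPH and DCT head the melanosome genes that are low in sole and MYO5A ends that list as the highest, while PAX3 is highest in snout, at 5.4 CPM.

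The genes whose levels followed a member most closely over the 20 libraries, among 11958 compared, differed from member to member. For DCT the closest were KRT73 (r = 0.94), an inner root sheath keratin, PADI3 (0.932), WDR72, KRT28 and KRTAP27-1, of which PADI3, the keratins and the keratin-associated protein belong to hair. For MITF they were SKAP2 (0.949), TNFRSF18, GATA3 (0.94), SUSD2 and DEPTOR. For KIT they were LFNG (0.956), NBEA, CRIM1, CLU and ALDH1A3, and for SOX10 RAB3B (0.934), PHKA1, TULP3, GAS2 and ADAM23. EDNRB had weaker company, with SAMD12 (0.846), PRLR (0.839), WFDC1 and CREG1 among its closest. TYRP1 was followed by GPR52 (0.95), CPA6 (0.942), SREK1, LTV1 and CYP4F3. The libraries share sites and depth, so these r values are descriptions only. The members themselves did not form 1 block, though several pairs went together. The r was 0.75 between MITF and EDNRB, 0.74 between DCT and KIT, and 0.71 between KIT and SOX10. It was 0.70 between PMEL and KIT and 0.64 between DCT and PMEL. Other pairs did not go together, with -0.24 between MITF and SOX10, -0.029 between TYRP1 and DCT, and -0.56 between TYRP1 and SOX10.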

How the data were processed

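The deposited values are estimated counts per Ensembl pig gene, which the authors made with Salmon, as the submitters' processing notes list it. Genome build, annotation release and Salmon version were not given in the sources used here, and coordinates are left out. Of the values 42.2% were not whole, and all were rounded. Symbols from the supplied tables matched 14821 of 19280 identifiers, and 1511 rows were 0 in every library. Per the labels' protocols, biopsies lay in RNAlater and libraries came from a TruSeq stranded mRNA kit.

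Sites were compared by the robust quasi-likelihood F test of edgeR 4.0.16 (R 4.3.3) after TMM scaling and filterByExpr (count minimum 10, total minimum 15). The fit of 20 libraries had site, as labelled or matched, and set as terms (15275 genes, 15 residual degrees of freedom). The first set alone had 15302 genes and 8, the second 15280 and 4. Genes were called at a Benjamini-Hochberg adjusted p under 0.05. Alternatives used DESeq2 1.42.0, limma-voom (limma 3.58.1), other scalings and filters, and each pig or library left out. The tests were checked on simulated counts.

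The pigs pair the libraries per the labels. For libraries of the same pig, deviations from site means correlated at a median of 0.22 (-0.0069 to 0.43, first set) and 0.31 (0.11 to 0.44, second set). No 2 libraries were copies (highest r 0.986).

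The members, gene lists and alternatives were chosen with earlier results of these data known. Named were all members, from each of 10 lists the 3 genes with the smallest adjusted p for any site, a fixed set of ligands and partners, the defining markers of other cells, and for each member with a mean of at least 1 CPM the 5 genes of highest r on log2(CPM + 0.5) centred by set. All r between genes were taken on log2(CPM + 0.5) centred by set. The correlations with sites centred as well were chosen after seeing the data. For any site, 15 of 16 sweat gland markers tested differed among sites (led by AQP5, KRT77 and FOXC1) and 13 of 13 skeletal muscle markers (led by MYL11, ACTA1 and XIRP2), beside 60.3% of all genes. Some genes this rule would name are not reported here. SOX18 and ESAM ranked beside PLVAP in endothelium. MREG, SLC7A11, FGF2, ADAMTS20, ERBB3, EDNRA, SOX9 and LEF1 were named after their values were seen.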

Additional observations from a re-analysis of the deposited data

How the results depend on the processing

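The 20 differences called between pairs of sites were recomputed under 37 alternatives each, most of which left out 1 pig or 1 library. Sites as deposited are not among these 37 and are given apart below. Of 740 values 693 kept their call, 47 lost it and 0 changed sign. DCT in sole against flank and upper foot and MITF in all 4 of its pairs kept their call under all 37. So did KIT in sole against upper foot and snout, and SOX10 in sole against snout. The most easily lost were DCT in snout against upper foot (12 alternatives, -1.8 to -0.69), SOX10 in snout against flank (10, 0.35 to 1.47) and EDNRB in snout against upper foot (9, -0.73 to -0.51). With sites as deposited, 0 members and 0 genes were called for any site and for each pair. In the first set alone the counts were 3 for any site, 2 for sole against flank, 3 for sole against upper foot and 2 for snout against upper foot, beside 30.4%, 32.9%, 24.1% and 7.92% of all genes. The second set alone called 2 for snout against upper foot (10.2% of all genes). Without the muscle-carrying libraries snout differed in 1 member from flank (12.8%) and in 1 from upper foot (8.33%). With a pig or a library left out, members called ran from 2 to 5 in sole against snout (26.3% to 43.3% of all genes), reaching 5 without the 4-month pig (43.2%), its snout library (38.3%) or the sole library of the 8-month pig (42.2%). They ran from 2 to 4 in snout against upper foot (14.2% to 23.2%), with 2 without the 6- or the 5-month pig (15.3% and 14.7%) or without the library labelled volar of the 6-month pig (18.1%). In the first set alone they ran from 1 to 3 for any site (10.8% to 16.9%), with 1 without the 8- or the 7-month pig (11.1% and 10.8%). The cause of these changes was not tested. With the pig as replicate block 6 members were called in sole against flank (58.6% of all genes), EDNRB added, and no other call over the 20 libraries changed. In the first set alone the block called 4 for any site (35.8%). Upper-quartile scaling moved the median of all genes by -0.107 in sole against flank and by -0.123 against upper foot, and none of the 20 differences changed direction. It called 6 members in sole against flank (55.6% of all genes), where the main fit called 5 (55.0%). That count was also 6 without the 4-month pig (56.0%) or its sole library (55.4%). It was 4 without the 6- or the 5-month pig (47.4% and 45.6%). Depth limits TYR, MLANA and PMEL, the last with 1 to 3 counts in some sole libraries.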
